A study of Homo sapiens with 4 samples.

Results

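Wnt proteins are secreted ligands that bind Frizzled receptors and the LRP5 or LRP6 co-receptors. Ligand binding protects β-catenin from destruction, and β-catenin then enters the nucleus and acts with the TCF/LEF factors, which sit on DNA and repress their targets when β-catenin is absent. In the developing nervous system this pathway is known for its roles in dorsal patterning, in the growth of progenitor pools and, through ligands that act without β-catenin, in cell polarity and migration. Binding of MEIS proteins was described here at 36 genes of the pathway core, out of 20136 protein-coding genes annotated by GENCODE 44 on GRCh37. They are 19 WNT ligands, 10 Frizzled receptors, the co-receptors LRP5 and LRP6, β-catenin (CTNNB1) and the 4 TCF/LEF factors TCF7, TCF7L1, TCF7L2 and LEF1, and the counting rule takes them by name. A site was counted at a gene when its summit, the position of highest signal, lay in the gene body extended by 100 kb on each side. This placed 24 of the 5169 reproducible MEIS sites at these genes.

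MEIS1 and MEIS2 are homeodomain transcription factors, and their binding was measured by ChIP-seq, the sequencing of DNA that an antibody pulls down with its protein, in human neural stem cells (hNSC). The cells were an untreated commercial culture grown in serum-free medium, sampled as 2 MEIS ChIP and 2 Input libraries, and the study describes 2 batches of hNSC processed in parallel. Input is sheared chromatin with no immunoprecipitation, and it entered the values used here through peak calling alone. The pulldown used a mixture of anti-MEIS1/2A (K830) and anti-MEIS1 (K844), although the antibody label names anti-MEISa alone, so a peak does not tell which MEIS protein was bound. Every sample was the same unedited culture, so no condition was compared, and a peak list holds no expression, so the labelled cell type could not be checked against its markers. How many reads lie behind a list is unknown. Replicate 1 had 36796 peaks and replicate 2 had 47449, of which 175 and 216 lay at the 36 genes. For every peak the deposited lists give the fold enrichment over input and the −log10 p of the peak call, and the list of reproducible sites holds places whose ranks in both replicates gave an irreproducible discovery rate (IDR) of 0.01 or less. Values given in pairs are those of replicate 1 and then replicate 2.

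The 4 TCF/LEF factors carried 11 of the 24 reproducible MEIS sites at the Wnt core, and the other 32 genes carried 13. TCF7L2 had 5 sites, TCF7L1 and LEF1 had 3 each, and the ligand WNT5B had 3. FZD3 had 2, and WNT3A, WNT5A, WNT7B, WNT8B, FZD1, FZD2, FZD6 and CTNNB1 had 1 each. At least 1 site was found at 13 of the 36 genes (36.1%), against 27.3% of all protein-coding genes, and at least 3 sites at 4 of the 36 (11.1%), against 2.8%. These 4 genes are long, with bodies of 117 to 217 kb. Of the 200 genes nearest to each in length, 1.0% to 9.0% had as many sites or more. With sites of an IDR of 0.001 or less, 10 of the 36 (27.8%) had at least 1, against 16.9% of all genes. These shares were described and not tested, because the design has 1 cell type and the genes of a list are not replicates. The genes were also chosen with earlier results of these data known.

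**Figure D1:**
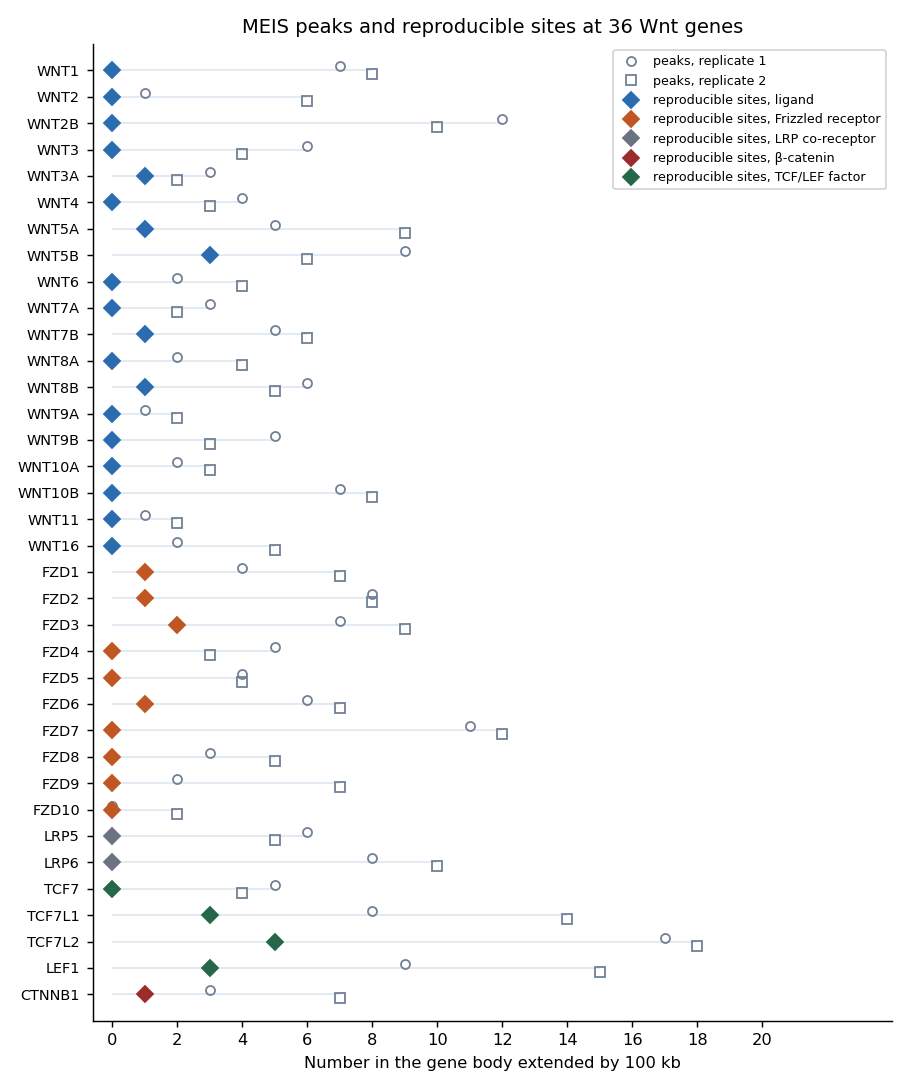
Reproducible MEIS sites (filled diamonds, coloured by role) and peaks of replicate 1 (open circles) and replicate 2 (open squares) at each of the 36 Wnt genes, counted in the gene body extended by 100 kb. The x axis is a count. TCF7L2 is farthest right with 5 sites and 17 and 18 peaks, and 23 genes sit at 0 sites while 22 of them have peaks in both replicates.

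Long genes hold more sites, with a mean of 0.186 sites in the tenth of genes with a median length of 1.74 kb and of 1.24 in the tenth with a median of 266 kb. Each gene was therefore set beside the 200 other protein-coding genes nearest in body length. Summed over the 4 TCF/LEF factors, genes of like length had a mean of 2.67 sites in all, and these factors had 11, a ratio of 4.13. The 19 ligands had 7 sites against 6.17, the 10 Frizzled receptors had 5 against 2.83, CTNNB1 had 1 against 0.340, and LRP5 and LRP6 had 0 against 1.05. The whole set had 24 sites against 13.1, a ratio of 1.84, and the 32 genes other than the TCF/LEF factors had 13 against 10.4. How the counts divided depended on the list. Without replicate 2 the TCF/LEF factors had 9 against 2.77 and the other genes 17 against 11.1. With overlapping peaks at a −log10 p of 5 or more, the TCF/LEF factors had 16 against 6.92 and the other genes 58 against 32.4. These counts were summed over genes, so a site in the windows of 2 genes counted at each. The distinct sites in these settings were 25 and 70. At least 1 site was found at 75% of the TCF/LEF factors, 40% of the Frizzled receptors and 26.3% of the ligands, where 42.8%, 21.9% and 24.4% of genes of like length had one. A percentile among the 200 genes, in which ties count as one part in 2, had a median of 39.5 over the 36 genes, since 23 of them had no site and shared that value with most genes of their length. The percentile was 32.25 to 43.0 at the 23 genes with no site and 83.75 to 99.5 at the 13 with a site. This split follows from the counts, because a mean of only 26.4% of genes of like length had any site. CTNNB1 with 1 site stood at 83.75, although 26.5% of genes of its length had as many or more. Per length of DNA, the extended Wnt genes held 2.91 sites per Mb over 8.26 Mb, and the extended bodies of all protein-coding genes held 1.84.

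**Figure D2:**
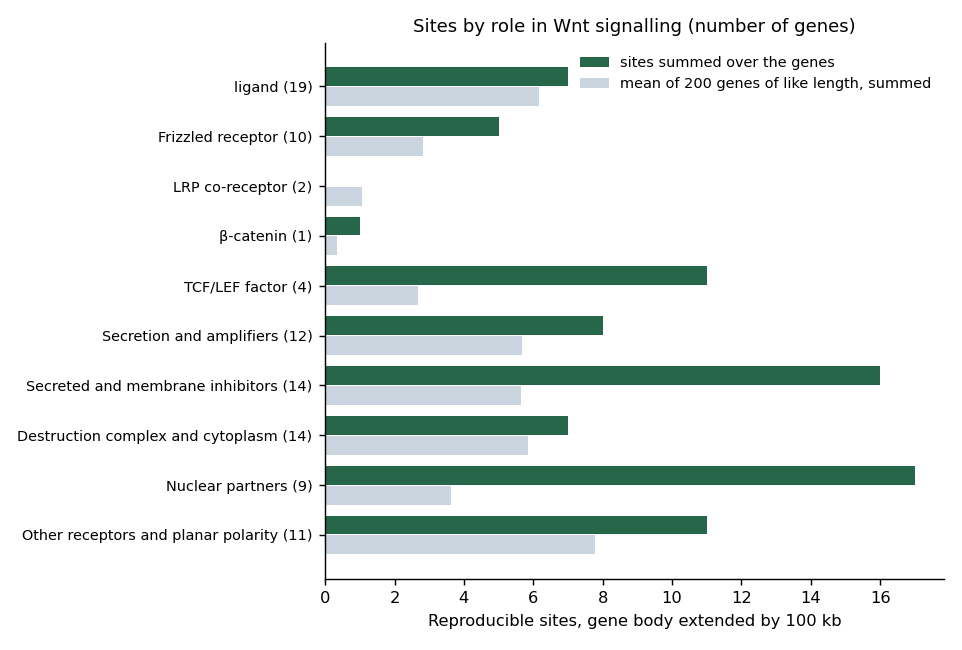
Reproducible sites summed over the genes of each role (green bars) and the mean of 200 genes of like length summed over the same genes (grey bars), for the 36 Wnt genes in 5 roles and for 60 other pathway genes in 5 groups, with the number of genes in brackets. Green exceeds grey in every group except LRP5 and LRP6, which have no green bar. The genes of both lists were chosen with earlier results of these data known. The gap is widest at the nuclear partners, with 17 against 3.63, the inhibitors, with 16 against 5.65, and the TCF/LEF factors, with 11 against 2.67. It is small at the ligands, with 7 against 6.17, and the destruction complex, with 7 against 5.84. At the genes for secretion and amplification, with 8 against 5.68, only 25% of genes had a site, against 32.7% of genes of like length.

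The TCF/LEF factors were described first. TCF7L2 (ENSG00000148737, chr10:114710006-114927437, plus strand), which acts as the nuclear end of the pathway in many tissues, had 5 sites, and 1.0% of the 200 genes of like length had as many or more. Its strongest site (chr10:114786676-114788749, rank 171 of 5169 by −log10 p) lay in intron 4, 77.8 kb downstream of the transcription start site (TSS) of the canonical transcript. The −log10 p was 314 and 415, and the fold enrichment was 30.1 and 64.1. The next (chr10:114818433-114820047, rank 883), in intron 5, had a −log10 p of 82.9 and 99.9 and a fold enrichment of 12.03 and 20.8. These were far above the remaining sites of the gene. A site across the TSS (chr10:114709570-114710529, rank 2262), with its summit in the 5′ UTR of exon 1 and 0.064 kb from the start, had a −log10 p of 43.2 and 33.4. Farther into intron 5 lay a pair of sites 7.90 kb apart, 167 and 175 kb from the TSS. The nearer one (chr10:114876874-114877961) had a −log10 p of 25.5 and 36.0. The farther one (chr10:114884956-114886356), the weakest of the gene at rank 4593, had a −log10 p of 15.8 and 20.6. All 5 summits lay inside the gene body and had TCF7L2 as the nearest TSS.

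The core of the MEIS motif is TGACAG, and MEIS proteins can also bind with PBX, another homeodomain protein, at a composite in which TGAT or TGAG stands directly before TGACAG. The motif was searched on both strands, so that it reads CTGTCA when it lies on the other strand. Every TCF7L2 site held TGACAG within the 500 bp window centred on its summit, and 2 of them held the composite, at 213 bp from the summit in the strongest site and at 2 bp in the site at the TSS. The other 22 sites at the 36 genes held no composite. The 101 bases on the summit of the strongest TCF7L2 site (GRCh37, plus strand, chr10:114787773-114787873), the composite in the same site (chr10:114788016-114788055) and the TGACAG 31 bp from the summit of the second (chr10:114819358-114819393) are shown to set the strength of the site against where its motif lies. Capitals mark the motif, and the summit stretch holds neither TGACAG nor its first 5 letters, TGACA, on either strand.
TCF7L2 strongest summit: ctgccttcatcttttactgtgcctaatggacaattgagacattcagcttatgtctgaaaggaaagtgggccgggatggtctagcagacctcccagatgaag
TCF7L2 composite: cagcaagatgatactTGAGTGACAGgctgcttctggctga
TCF7L2 second site: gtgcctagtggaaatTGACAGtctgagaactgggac

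TCF7L1 (ENSG00000152284, chr2:85360515-85537510, plus strand), a factor known mainly as a repressor of Wnt targets, held the strongest site of all 36 genes. That site (chr2:85481476-85483867, rank 110) lay in intron 3, 122 kb downstream of the TSS, and the nearest TSS was that of TGOLN2 at 73.1 kb. Its −log10 p was 450.0 and 585, and its fold enrichment was 36.5 and 77.4, the highest among the 24 sites in both replicates. The other TCF7L1 sites were also in intron 3. One (chr2:85416157-85417750, rank 1401), 56.3 kb from the TSS, had a −log10 p of 58.2 and 53.6 and a fold enrichment of 8.49 and 13.9. The other (chr2:85461722-85462616, rank 2673), 102 kb from the TSS, had a −log10 p of 28.2 and 55.2 and a fold enrichment of 5.73 and 14.6. As many sites or more were found at 9.0% of genes of like length. The strongest site held no TGACAG in its 500 bp window, and the summit stretch (GRCh37, plus strand, chr2:85481994-85482094) holds the shorter TGACA on the minus strand, read as TGTCA and set in capitals.
TCF7L1 strongest summit: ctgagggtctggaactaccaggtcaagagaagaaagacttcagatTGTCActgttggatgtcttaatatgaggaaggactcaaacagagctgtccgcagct

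LEF1 (ENSG00000138795, chr4:108968701-109090112, minus strand), a TCF/LEF factor known mainly as an activator and itself a known Wnt target, had 3 sites, none of them strong, and 2.0% of genes of like length had as many or more. The strongest (chr4:109056407-109057508, rank 1777) lay in intron 3, 33.2 kb downstream of the TSS, with a −log10 p of 42.3 and 46.6. A site 5.85 kb from it (chr4:109062298-109063621, rank 4637), in the same intron, had a −log10 p of 15.7 and 35.2, with replicate 2 the higher. The third (chr4:109090252-109091059, rank 4864) was the weakest of the 24 sites, 0.529 kb upstream of the TSS, with a −log10 p of 14.5 and 17.8 and a fold enrichment of 4.35 and 7.43. The count of LEF1 was 1 among as many of the strongest peaks of replicate 1 alone and 2 among those of replicate 2 alone, and 1 site had an IDR of 0.001 or less. The pair in intron 3 held no TGACAG. The site by the TSS held it 4 bp from the summit (GRCh37, plus strand, chr4:109090603-109090638), and the stretch is shown because the weakest site of the set carries the full core at its centre.
LEF1 site by the TSS: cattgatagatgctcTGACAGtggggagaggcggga

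TCF7 (ENSG00000081059, chr5:133450372-133487556, plus strand), the remaining family member, had no site. It had 5 peaks in replicate 1 and 4 in replicate 2, with a highest −log10 p of 12.4 and 9.32. Of genes of its length, 28.5% had at least 1 site, with a mean of 0.375 sites.

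**Figure D3:**
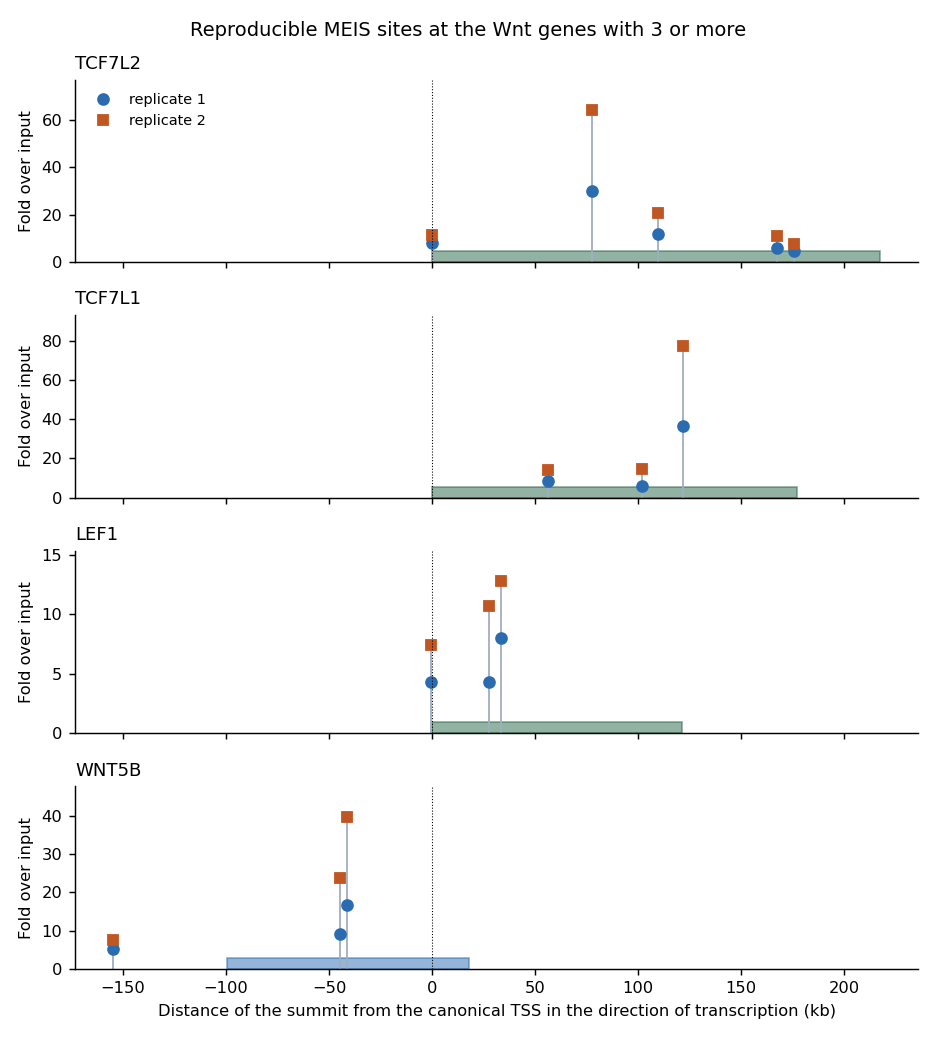
Fold enrichment over input (y axis, linear) of each reproducible site at TCF7L2, TCF7L1, LEF1 and WNT5B against the distance of its summit from the canonical TSS in kb (x axis, positive along transcription), in replicate 1 (circles) and replicate 2 (squares). The coloured strip is the gene body and the dotted line the TSS. The strongest TCF7L2 and TCF7L1 sites stand well inside the gene at 77.8 and 122 kb, and the strongest WNT5B site lies 41.1 kb before the canonical TSS.

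Of the 19 ligands, 5 had a site, and WNT5B had 3 of their 7. WNT5B (ENSG00000111186, chr12:1639057-1756378, plus strand) is known mainly for signalling without β-catenin, and 2.5% of genes of like length had as many sites or more. With the canonical transcript as gene body, WNT5B had 2 sites. A pair of strong sites 3.55 kb apart lay inside the WNT5B gene record, 41.1 and 44.7 kb upstream of its canonical TSS. Both were in intron 1 of FBXL14, which overlaps it, and the FBXL14 TSS was nearer, at 6.46 and 10.02 kb. The strongest (chr12:1696632-1698073, rank 463) had a −log10 p of 146 and 237, with a fold enrichment of 16.6 and 39.8. Its neighbour (chr12:1692678-1694272, rank 936) had a −log10 p of 78.3 and 116, with a fold enrichment of 9.08 and 23.9. A weaker one (chr12:1583112-1584320, rank 3277) lay 155 kb upstream in intron 18 of ERC1, with a −log10 p of 23.5 and 22.7. Its nearest TSS was also that of FBXL14, at 120 kb. WNT5A (ENSG00000114251, chr3:55499743-55524567, minus strand), the closest relative of WNT5B, had a site (chr3:55571603-55572869, rank 1324) 51.0 kb upstream of its TSS in intron 17 of ERC2, and the WNT5A TSS was the nearest. Its −log10 p was 56.7 and 118 and its fold enrichment 8.52 and 24.3.

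Neither the strongest WNT5B site nor the WNT5A site held TGACAG in its window. The summit stretches (GRCh37, plus strand, chr12:1697233-1697333 and chr3:55572239-55572339) are shown because each holds the shorter TGACA, in capitals as TGTCA, and the WNT5A stretch holds it in a pair with 1 base between.
WNT5B strongest summit: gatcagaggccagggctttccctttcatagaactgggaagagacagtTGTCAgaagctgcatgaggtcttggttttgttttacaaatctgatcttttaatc
WNT5A summit: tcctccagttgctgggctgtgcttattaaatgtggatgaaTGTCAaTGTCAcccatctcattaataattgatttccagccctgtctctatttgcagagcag

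The sites of the remaining 3 ligands were weaker than that of WNT5A and lay outside the gene bodies. The WNT8B site (chr10:102263497-102264487, rank 2600) lay 41.4 kb downstream of the TSS in intron 10 of SEC31B, with a −log10 p of 38.7 and 29.0. The WNT3A site (chr1:228327336-228328001, rank 3120), 133 kb downstream, lay 0.308 kb from the TSS of GUK1, with a −log10 p of 27.9 and 24.2. WNT3A and WNT8B are ligands known for signalling through β-catenin. The WNT7B site (chr22:46259634-46260320, rank 4724) lay 113 kb downstream outside any protein-coding gene, with a −log10 p of 19.2 and 15.4. WNT7B had no site among as many of the strongest replicate 2 peaks and 2 among those of replicate 1. The WNT3A and WNT7B sites had an IDR above 0.001.

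Frizzled proteins are the receptors of the ligands, and 4 of the 10 had a site. FZD1 had one (chr7:90797808-90799769, rank 886) 94.4 kb upstream of its TSS in intron 14 of CDK14, with a −log10 p of 82.7 and 124 and a fold enrichment of 8.39 and 24.4. Among as many of the strongest peaks of replicate 2 it had 2. FZD2 had its site close to the start (chr17:42631593-42634845, rank 4616), 1.66 kb upstream of the TSS. This site was 3253 bp wide, the widest of the 24, and the summits of the 2 replicates lay 1154 bp apart. Its −log10 p was 21.2 and 15.8, and its IDR was above 0.001. The FZD1 summit stretch (GRCh37, plus strand, chr7:90799252-90799352), with TGTCA and CTGTCA in capitals 2 bases apart, and the FZD2 motif 41 bp from the summit (chr17:42633132-42633167) are shown as the strong and the weak case.
FZD1 summit: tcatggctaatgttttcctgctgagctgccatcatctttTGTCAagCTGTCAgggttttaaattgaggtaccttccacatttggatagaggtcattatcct
FZD2 motif: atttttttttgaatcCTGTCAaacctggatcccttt

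FZD3, a receptor known for its part in axon guidance and planar polarity, had 2 sites. One (chr8:28370919-28372853, rank 845), in intron 3 of FZD3 and 20.2 kb downstream of the TSS, had a −log10 p of 86.4 and 89.7 and a fold enrichment of 10.6 and 17.3. The other (chr8:28347422-28348482, rank 2564), 3.72 kb upstream, was nearer to the TSS of FBXO16, at 0.261 kb, and had a −log10 p of 29.4 and 55.2. FZD6, a relative of FZD3 in planar polarity, had a site (chr8:104280598-104282075, rank 849) 29.5 kb upstream of its TSS, outside any protein-coding gene, with a −log10 p of 86.1 and 121 and a fold enrichment of 9.52 and 25.1. The strongest sites of FZD3, FZD6 and FZD1 were thus close in rank. Each had the TSS of its receptor as the nearest and TGACAG at 1 to 5 bp from the summit.

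The co-receptors LRP5 and LRP6 had no site. Of genes of like length, 35% and 35.5% had at least 1, with a mean of 0.525 sites each, so most genes of their length had none either. LRP5 had 6 peaks in replicate 1 and 5 in replicate 2, and LRP6 had 8 and 10.

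CTNNB1 (ENSG00000168036, chr3:41236232-41301587, plus strand), the transcriptional co-activator of the pathway, had 1 site (chr3:41288459-41289697, rank 3069). It lay inside the CTNNB1 gene record, 48.2 kb downstream of the TSS, and by canonical transcripts in intron 36 of the overlapping ULK4. The −log10 p was 24.6 and 53.8, and the fold enrichment was 5.73 and 15.7, so replicate 2 was the higher by both measures. TGACAG was centred 3 bp from its summit (GRCh37, plus strand, chr3:41289188-41289223), and the stretch is shown as the only site at β-catenin.
CTNNB1 site: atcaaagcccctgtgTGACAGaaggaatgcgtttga

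The 23 genes with no reproducible site were WNT1, WNT2, WNT2B, WNT3, WNT4, WNT6, WNT7A, WNT8A, WNT9A, WNT9B, WNT10A, WNT10B, WNT11, WNT16, FZD4, FZD5, FZD7, FZD8, FZD9, FZD10, LRP5, LRP6 and TCF7. They were not without peaks. Each had 0 to 12 peaks in replicate 1 and 2 to 12 in replicate 2, with a median of 4 in both, and 21 of the 23, all but WNT9A and FZD10, had at least 1 peak that overlapped in the replicates. The strongest peak of each reached a −log10 p of 3.20 to 17.5 in replicate 1 and of 3.38 to 34.4 in replicate 2. FZD7 had the most overlapping peaks of these genes, 6 of its 11 in replicate 1, with a highest −log10 p of 14.0 and 25.6. Among as many of the strongest peaks of 1 replicate as there were sites, FZD7 and LRP6 gained a site in replicate 2, and WNT3, WNT7A and WNT9B gained one in replicate 1. The strongest replicate 1 peak of WNT3 and that of WNT9B were the same peak, at a −log10 p of 17.4. Over the 36 genes, 75 overlapping peaks outside the list lay at 32 genes, and 4 of them lay within 1 kb of the canonical TSS. At WNT3 such a peak was centred 0.091 kb upstream of the TSS, with a −log10 p of 17.4 and 11.97. At LRP6 it lay 0.955 kb away, with a −log10 p of 9.60 and 34.4, so that replicate 2 was far the higher. The remaining ones were at FZD1, with 9.05 and 8.80, and at TCF7L1, with 2.08 and 7.56. Near neighbours share windows, and the pairs WNT1 and WNT10B, WNT3 and WNT9B, WNT3A and WNT9A, and WNT6 and WNT10A lay 6.59, 0.046, 59.1 and 6.62 kb apart. Their peaks were partly the same peaks, and none of these pairs shared a reproducible site.

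As a set, the sites at the Wnt genes were about as strong as sites elsewhere. The replicates had median −log10 p values of 40.5 and 53.7, against 33.8 and 39.9 over all 5169 sites, and the median fold enrichment was 7.23 and 14.0, against 6.38 and 11.5. The value of the list, the lower of the 2 replicate values at each of the 24 sites, had a median of 31.4, against 29.3, and among as many of the strongest peaks of replicate 2 alone the median was 50.1. None was among the first 100 sites, 3 were among the first 516, and 13 ranked above the middle of the list and 11 below it. Fold enrichment was higher in replicate 2 at 24 of 24 sites, as at 97.4% of all sites. The paper gives alternative bead washes and does not say which replicate had which, and their effect on fold enrichment was not tested. The −log10 p was higher in replicate 1 at 7 of the 24 (29.2%, 95% Wilson interval 14.9 to 49.2), against 35.8% of all. Summits of the replicates lay a median of 6.5 bp apart, against 11 bp. Of the peaks at the 36 genes, 56.6% in replicate 1 (49.2 to 63.7) and 46.3% in replicate 2 (39.8 to 53.0) overlapped a peak of the other replicate, against 49.0% and 37.99% of all peaks, and 13.7% and 11.1% were in the list, against 14.1% and 10.9%.

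**Figure D4:**
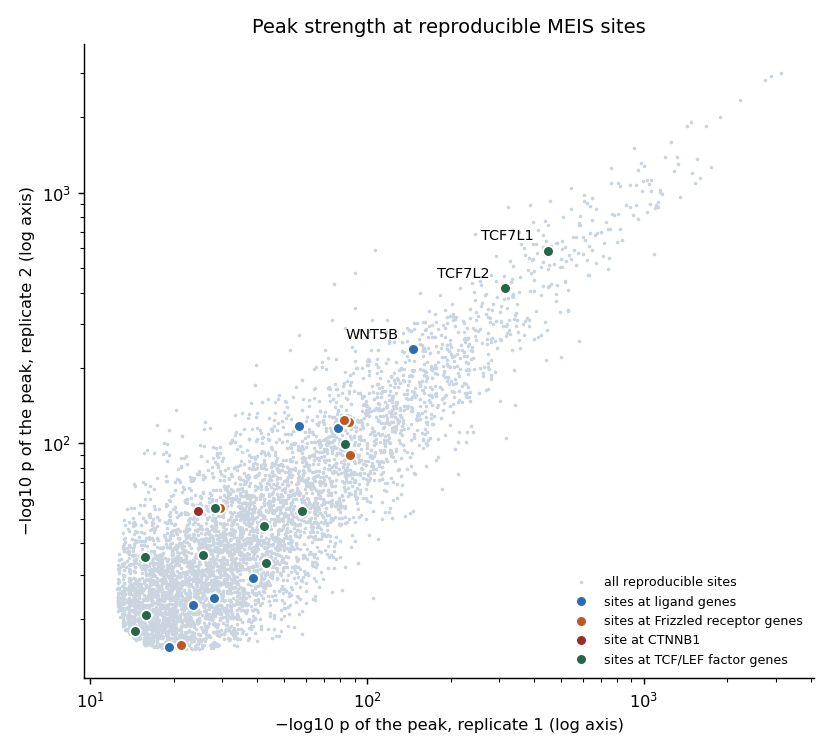
The −log10 p of the peak in replicate 1 (x axis, log scale) and replicate 2 (y axis, log scale) for all 5169 reproducible sites (grey) and for the 24 sites at the Wnt genes, coloured by role. The TCF7L1, TCF7L2 and WNT5B sites at 450.0, 314 and 146 in replicate 1 stand above the other 21. These lie at 14.5 to 86.4 in replicate 1, where most of the grey cloud lies.

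By position, 17 of the 24 sites (70.8%, 50.8 to 85.1) lay in an intron of a protein-coding gene, against 41.9% of all sites, and 6 (25%, 12 to 44.9) lay outside protein-coding genes, against 55.9%. The counting rule draws on gene bodies, so these shares and the TSS shares that follow are in part set by it. The nearest TSS was that of one of the 36 genes at 16 sites (66.7%, 46.7 to 82.0). Within 5 kb of a TSS lay 5 sites (20.8%, 9.24 to 40.5), against 8.49% of all, namely at TCF7L2, LEF1, FZD2, FZD3 and WNT3A, the last 2 nearest to FBXO16 and GUK1. Another site lay within 10 kb of 6 sites (25%, against 11.5%), a pair each at TCF7L2, LEF1 and WNT5B.

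For sequence, TGACAG was found at 15 of the 24 sites (62.5%, 42.7 to 78.8) in windows of 500 bp, against 58.3% of all sites. Within 50 bp of the summit it was found at 8 (33.3%, 18.0 to 53.3), against 39.5%. The composite was found at 2 (8.33%, 2.32 to 25.8), against 4.93%. The strings of other factor families were searched in the same windows on both strands. The TCF/LEF string CTTTGAT or CTTTGAA was found at 5 sites (20.8%, 9.24 to 40.5), against 26.6% of all, the TEAD string GGAATG at 7 (29.2%, 14.9 to 49.2), against 38.2%, and the SOX string ACAAAG or ACAATG at 17 (70.8%, 50.8 to 85.1), against 71.0%. The homeodomain string TAATT was found at 20 (83.3%, 64.1 to 93.3), against 70.2%. All of these intervals, which cover the number of sites alone, include the share over all sites. The shorter TGACA, a search added after the values were seen, was found within 50 bp of the summit at 18 of the 24 sites (75%, 55.1 to 88.0), against 70.0% of all. The 3 strongest sites at the Wnt genes thus lacked TGACAG within 50 bp, and those of TCF7L1 and WNT5B had TGACA there. A string match is a description of the sequence and not of what was bound.

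**Figure D5:**
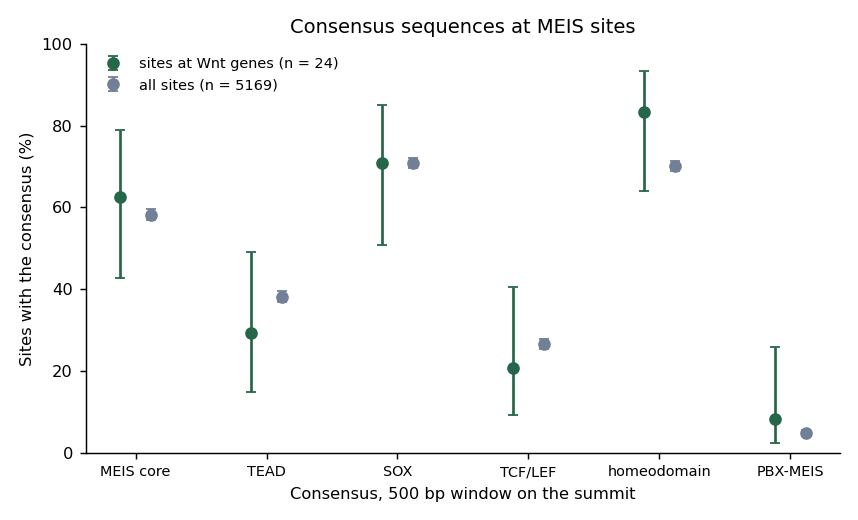
Share of sites (y axis, percent) with each consensus string in the 500 bp window on the summit, for the 24 sites at the Wnt genes (green) and all 5169 sites (grey). Bars are 95% Wilson intervals, which cover the number of sites alone. The green intervals include the grey value for each of the 6 strings, as at 62.5% and 58.3% for the MEIS core.

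The rest of the pathway was described by 60 other genes in 5 groups. At least 1 site was found at 31 of them (51.7%), where 31.0% of genes of like length and 27.3% of all genes had one, and they held 58 sites in all. The list of these genes was written with earlier results of these data known, so its counts describe it and cannot support an excess. The nuclear partners of β-catenin and TCF stood highest, with 17 sites against 3.63 at genes of like length. Where 29.1% of genes of like length had a site, 7 of these 9 genes (77.8%) did. These included the Groucho co-repressors, which TCF/LEF factors recruit: TLE4 had 6 sites, with a −log10 p of up to 231 and 169, and TLE3 had 3, its strongest at rank 197 with 326 and 284. Of the secreted and membrane inhibitors, 8 of 14 (57.1%) had a site, against 26.8% of genes of like length, with 16 sites against 5.65. SFRP1, a decoy that binds Wnt ligands, had 4 with a −log10 p of up to 125 and 138, DKK2, an antagonist at LRP5 and LRP6, had 3 with up to 45.2 and 43.5, and KREMEN2, a DKK receptor, held the strongest with 127 and 138. Of the genes for secretion and amplification, 3 of 12 (25%) had a site, a lower share than the 32.7% of genes of like length. All 8 of their sites, against 5.68, lay at WLS, LGR4 and ZNRF3. WLS, which carries Wnt ligands to the cell surface, had 4 sites, one of which was rank 1 of the whole list with a −log10 p of 3132 and 3008.3. LGR4, a receptor for the R-spondins that amplify the signal, had 2, one of them at rank 8. The destruction complex and cytoplasmic genes had a site at 6 of 14 (42.9%), against 28.9% of genes of like length. They had 7 sites against 5.84, with 2 at AXIN2 and the strongest at the feedback inhibitor NKD1 with 160 and 305. The other receptors and planar polarity genes had a site at 7 of 11 (63.6%), against 38.8% of genes of like length. They had 11 sites against 7.79, with 3 at CELSR1 and 2 at PRICKLE1, which also held the strongest with 106 and 108.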

How the data were processed

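MEIS ChIP and Input samples were grouped by title. The authors trimmed adapters with cutadapt 1.16, mapped paired 36 bp reads to GRCh37 with Bowtie2 2.3.0, filtered on a mapping quality of 30 or more using SAMtools 1.2, removed duplicates with Picard 2.15.0, called peaks per replicate against input with MACS2 (version not given in the sources used here) at a p-value of 0.01, and ran IDR 2.0.3 on the 2 lists. The mapping filter removes reads from repeated sequence. The deposited replicate lists give fold enrichment over input, a linear ratio, and the −log10 p. For each reproducible site the deposited list holds a summit, a scaled score from IDR, a −log10 p and a −log10 IDR. Its 8 columns of per-replicate values were not used: a site's value in a replicate is that of the strongest peak overlapping it by at least 1 bp.

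Gene bodies were GENCODE 44 gene records on GRCh37, and 281 of 20136 protein-coding genes lacked a canonical transcript and were placed by the gene record. Sites were counted in bodies extended by 100 kb. Motifs were searched on both strands of the GRCh37 genome in 500 bp windows, and sequences are from the same genome. Counts, intervals and percentiles were computed in Python 3.11.15 (pandas 2.3.3, scipy 1.17.1, pysam 0.24.0) and tested on simulated data. No test between groups was made, depth is unknown, and Wilson 95% intervals cover counting alone.

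The members and lists were chosen with earlier results of these data known. Described in detail were genes with 3 or more sites or holding 1 of the 10 strongest sites; other genes with a site were given by position and strength, and those with none by name, with the one that had most shared peaks. Of each further pathway group, the 2 genes with most sites and the 1 with the strongest were named. Sequences are from those 10 sites and sites with a motif near the summit, and those on chromosome 8 or in a UTR were not printed. Alternatives changed the distance, list, placement, gene body, length matching, window, TSS and replicates.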

Additional observations from a re-analysis of the deposited data

How the results depend on the processing

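Of 72 alternative values of the main counts, medians and shares, 44 stayed the same and 28 moved. The 72 include the alternatives for the count at the TCF/LEF genes, which were chosen after seeing the data. Of those, only the setting with 500 kb moved. A count was the same within 1.5 times, a median within the replicate spread, and a share within the Wilson interval of the main share. For the 13 genes with a site in the main count, 79 of 117 counts stayed the same and 38 moved. Genes with no site in the main count were not in this tally. The cause was not tested beyond what each setting itself removes or adds. With gene bodies alone, 14 sites lay at 6 Wnt genes (16.7%, against 8.34% of all genes). With 20 kb on each side, 7 genes had a site (19.4%, against 12.9%). With 500 kb, 78 sites lay at 25 genes (69.4%, against 67.6%), 22 of them at the TCF/LEF genes, and 35.9% of sites had a Wnt gene as the nearest TSS. Overlapping peaks, each at a −log10 p of 5 or more, gave 70 sites at 28 genes (77.8%, against 56.6%). The median length percentile, in the same order, was 49.25, 46.375, 54.875 and 68.125, and it was 44.625 with an IDR of 0.001 or less, 40.125 with canonical transcripts and 40.5 with the 100 genes nearest in length. The median −log10 p was 48.0 for gene bodies, 9.55 for the overlapping peaks and 56.7 for the stricter IDR. TGACAG was found at 41.7% of sites in 200 bp windows and 79.2% in 1000 bp windows. Peaks reaching a −log10 p of 5 numbered 93 and 108 in replicates 1 and 2, and peaks in gene bodies 48 and 58.

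Leaving out either replicate, and taking an equal number of top peaks from the remaining one, gave 25 to 26 sites at 14 to 16 genes, a median percentile of 41.375 to 41.875, a median −log10 p of 38.7 to 50.1, the higher without replicate 1, TGACAG at 60% to 61.5% and a Wnt gene as the nearest TSS at 65.4% to 68.0%. FZD7 and LRP6 then had a site without replicate 1, and WNT3, WNT7A and WNT9B without replicate 2, WNT3 and WNT9B by a peak in both their windows. The count at the TCF/LEF genes, for which alternatives were chosen after seeing the data, was 9 to 11 without either replicate, 10 in gene bodies (against 1.2 at genes of like length), 8 with the stricter IDR (against 1.54), 22 within 500 kb (against 8.49) and 16 with overlapping peaks (against 6.92). The other 32 genes had, in the last 2 settings, 59 against 47.1 and 58 against 32.4. No paired analysis was possible because no result comes from a test and Input was not analysed here as values. Unknown depth limits every count of peaks. A gene with no site had none in the list of reproducible sites, and 21 of these 23 genes had at least 1 peak that overlapped in the replicates.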

Other observations

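At TCF7L2, a peak of both replicates at chr10:114887468-114889099, 178 kb downstream of the TSS, was outside the list of reproducible sites. In replicates 1 and 2 its −log10 p was 22.2 and 23.2, and its fold enrichment was 5.05 and 8.37. The weakest listed TCF7L2 site, at 15.8 and 20.6, was lower in both replicates. Over the genome, 50 overlapping peaks outside the list had a −log10 p of at least 20 in both replicates, beside 3688 listed sites, and 97 had at least 15, beside 4802. A count of listed sites therefore left out some peaks at the strength of its weaker members.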
